A study of Mus musculus with 12 samples.

Results

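The genes described here are 10 of the 24421 in the count table, matched by symbol: the microtubule genes Tubb3, Map2, Dcx and Stmn2, the growth cone gene Gap43, the neurofilament genes Ina, Nefl and Nefm, and the neuronal RNA-binding protein genes Elavl3 and Elavl4. They are widely used as markers of neuronal differentiation. RNA from mouse embryo heads was sequenced in 12 libraries, 3 in each of 4 groups: Eftud2+/- embryos, which served as controls, and Eftud2-/- embryos, each at embryonic day 9.0 (E9.0) and 9.5 (E9.5). The mice were C57Bl/6 and untreated, and the deletion was specific to neural crest cells, the migratory cells that form much of the face and part of the cranial sensory ganglia. Eftud2 encodes a GTP-binding protein of the U5 snRNP, a core particle of the spliceosome, and the series concerns a mouse model of the craniofacial disorder caused by its mutation. The controls are themselves heterozygous, so each genotype comparison is between homozygous and heterozygous embryos, and no wild-type library was used.

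The labels do not give the Cre driver, the somite numbers or how many embryos went into a library. Replicates are known only as separate samples, so p-values measure the spread between those samples. The labels name the material in several ways, as neural crest cells, as cranial nerve ganglia and as heads. Muscle and neuron markers were both present: the summed level of 6 heart muscle genes was 59.4 to 321 CPM (counts relative to library size) at E9.0 and 1871 to 2984 CPM at E9.5. The sensory neuron gene Pou4f1 had group means of 5.16 to 11.7 CPM. The peripheral neurofilament gene Prph had group means of only 0.181 to 0.571 CPM. In heterozygous E9.0 heads Prph was at 0.220, 0.107 and 0.215 CPM, where 3 counts are 0.220, 0.161 and 0.129 CPM. Its presence there is uncertain. The libraries held 13914543 to 31172708 counts, and all levels below are CPM on library sizes scaled by the trimmed mean of M-values (TMM). Eftud2 itself, the label check, was at 275 to 302 CPM in heterozygous and 232 to 236 CPM in homozygous heads at E9.0, and at 248 to 264 against 221 to 226 CPM at E9.5. Its log2 fold change of homozygous over heterozygous heads was -0.29 ± 0.05 (SE) at E9.0 (edgeR, adjusted p = 0.0193). At E9.5 it was -0.19 ± 0.05 (edgeR, adjusted p = 0.0906), which did not pass the threshold of 0.05. A pair of libraries stood apart. In heterozygous E9.0 replicate 1 the ribosomal RNA gene Rn45s took 37.4% of counts, against 4.398% to 16.2% in the other 11. Heterozygous E9.5 replicate 2 had a summed level of 8 cranial mesenchyme genes of 544 CPM, against 1057 and 1084 CPM in the rest of its group.

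A newborn neuron builds its axon and dendrites on a cytoskeleton of microtubules and neurofilaments. Neuronal beta-tubulin is laid into microtubules that are bound by MAP2 in dendrites and by doublecortin in migrating and early neurons, while stathmins such as STMN2 bind free tubulin and keep growing ends dynamic. Neurofilaments are intermediate filaments assembled from light, medium and heavy chains with alpha-internexin or peripherin. ELAVL proteins bind U-rich and AU-rich elements of messenger RNAs and affect their stability and splicing. In the embryonic head early neurons arise in the neural tube and in the cranial ganglia, whose neurons come from both ectodermal placodes and the neural crest.

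Promoter sequences were found in the RefSeq table (GRCm38.p6, 250 bases before to 50 after each start) for 6 of the 10 genes: Tubb3, Map2, Dcx, Elavl3, Elavl4 and Ina. Those of Tubb3, Map2 and Ina are shown because these genes fell in homozygous heads at E9.5, and those of Dcx and Elavl3 because they rose most between the stages. Each runs 5′ to 3′ on the strand of the gene, in lower case, with any CAGCTG or CAGATG in capitals, which are E-box letters of the kind that proneural factors bind. The Tubb3 sequence is chr8:123411303-123411602 (+), Map2 is chr1:66175079-66175378 (+), Ina is chr19:47014431-47014730 (+), Dcx is chrX:143933170-143933469 (-, the first of its 2 listed starts) and Elavl3 is chr9:22051974-22052273 (-).
Tubb3: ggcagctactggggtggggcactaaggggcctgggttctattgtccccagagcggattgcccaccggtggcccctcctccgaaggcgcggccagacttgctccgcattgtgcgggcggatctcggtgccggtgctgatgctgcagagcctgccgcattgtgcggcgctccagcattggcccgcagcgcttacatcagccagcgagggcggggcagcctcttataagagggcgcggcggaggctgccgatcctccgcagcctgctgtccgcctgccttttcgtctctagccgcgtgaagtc
Map2: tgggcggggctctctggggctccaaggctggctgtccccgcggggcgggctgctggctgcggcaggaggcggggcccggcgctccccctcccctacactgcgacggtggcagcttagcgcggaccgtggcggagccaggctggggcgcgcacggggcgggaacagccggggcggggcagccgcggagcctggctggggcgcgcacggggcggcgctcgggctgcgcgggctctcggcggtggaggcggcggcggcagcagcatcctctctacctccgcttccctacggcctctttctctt
Ina: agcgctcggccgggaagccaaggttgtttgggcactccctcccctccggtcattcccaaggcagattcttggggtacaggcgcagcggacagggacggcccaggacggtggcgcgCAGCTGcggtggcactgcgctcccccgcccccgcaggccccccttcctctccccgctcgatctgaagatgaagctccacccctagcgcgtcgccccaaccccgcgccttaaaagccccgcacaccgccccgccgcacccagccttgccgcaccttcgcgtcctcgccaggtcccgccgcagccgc
Dcx: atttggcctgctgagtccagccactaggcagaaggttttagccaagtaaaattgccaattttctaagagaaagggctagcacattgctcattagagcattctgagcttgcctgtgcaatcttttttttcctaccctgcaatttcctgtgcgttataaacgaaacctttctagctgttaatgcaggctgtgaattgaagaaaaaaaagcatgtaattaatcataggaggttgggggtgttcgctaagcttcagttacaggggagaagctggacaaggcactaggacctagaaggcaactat
Elavl3: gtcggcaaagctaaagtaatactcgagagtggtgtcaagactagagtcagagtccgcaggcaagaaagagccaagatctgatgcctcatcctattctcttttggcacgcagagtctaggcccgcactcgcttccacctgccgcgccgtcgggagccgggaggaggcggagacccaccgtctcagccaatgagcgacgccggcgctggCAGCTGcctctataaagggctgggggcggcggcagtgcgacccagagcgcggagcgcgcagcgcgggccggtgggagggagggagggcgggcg

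The sequences differed in base composition. GC content was 67.3% for Tubb3, 77.7% for Map2, 71.7% for Ina and 65.3% for Elavl3, all above the upper quartile of 61.7% over 32851 promoters of 300 bases. Dcx, at 43.0%, lay below the lower quartile of 45.7%. CAGCTG, which reads the same on both strands, began at base 116 of the Ina and base 208 of the Elavl3 sequence, counted from the 5′ end, and was not found in the other 3. It was in 16.3% of all promoters of this length. CAGATG, searched on both strands, was in none of the 5 printed sequences and in 17.2% of all promoters. Elavl4, which is not printed, held CAGATG at its listed starts 2, 3 and 4 and CAGCTG at starts 2 and 3. GGGCGG, the core of a GC box, was found at 5 places in Map2 and at 2 places each in Tubb3, Ina and Elavl3, on either strand, and in 35.7% of all promoters. TATAAA, on either strand, was found in Dcx and Elavl3 and in 13.6% of all promoters. These are matches of letters, and binding or function was not tested.

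Tubb3, the neuron-enriched class III beta-tubulin (chr8:123411424-123422015, + strand), fell in homozygous heads at E9.5. At E9.0 it was at 33.4, 34.0 and 38.2 CPM in heterozygous and 28.5, 29.5 and 29.0 CPM in homozygous heads. At E9.5 it was at 83.0, 103 and 97.2 CPM in heterozygous and 59.1, 55.8 and 60.5 CPM in homozygous heads. The homozygous libraries lay below all heterozygous ones at both stages. The log2 fold change of homozygous over heterozygous heads was -0.28 ± 0.08 (SE) at E9.0, which did not pass the threshold (adjusted p = 0.171). At E9.5 it was -0.69 ± 0.07, a fall to 0.62 of the control level (adjusted p = 0.000172; edgeR quasi-likelihood test, Benjamini-Hochberg over 14810 genes, threshold 0.05). Without heterozygous E9.5 replicate 2, the library with the highest Tubb3 and the lowest mesenchyme sum of the 6 at E9.5, the log2 fold change at E9.5 was -0.62 (adjusted p = 0.000512).

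Map2, which encodes a microtubule-associated protein of dendrites and cell bodies (chr1:66175273-66442583, + strand), fell at both stages. It had 24.5, 29.3 and 32.4 CPM in heterozygous and 19.5, 22.2 and 17.9 CPM in homozygous heads at E9.0. At E9.5 the values were 45.6, 52.3 and 45.2 CPM against 32.3, 30.9 and 34.9 CPM. The genotypes overlapped at neither stage. In edgeR it fell to 0.689 of the control level at E9.0, a log2 fold change of -0.54 ± 0.11 (adjusted p = 0.0305), and to 0.686 at E9.5, a change of -0.54 ± 0.10 (adjusted p = 0.00795). The call at E9.0 was lost when any 1 of 5 libraries was left out, with adjusted p of 0.053 to 0.18: heterozygous E9.0 replicate 2 or 3, homozygous E9.0 replicate 1 or 3, or homozygous E9.5 replicate 1. It was also lost in 4 of 11 alternatives: total counts alone (0.343), total counts without Rn45s (0.0553), limma-voom (0.0817) and only the groups compared (0.117). The call at E9.5 was lost without homozygous E9.5 replicate 2 (adjusted p = 0.0564) and with total counts alone (0.181).

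Dcx, doublecortin, a microtubule-binding protein of migrating neurons (chrX:143855842-143933311, - strand), was low at E9.0, and its genotype differences did not pass the threshold at either stage. It had 1.54, 3.70 and 2.62 CPM in heterozygous and 1.65, 1.89 and 1.28 CPM in homozygous heads at E9.0, from 19 to 69 counts a library. At E9.5 it had 15.8, 18.9 and 17.5 CPM against 12.4, 13.8 and 15.9 CPM. The genotypes overlapped at both stages, at E9.5 by a single library on each side. The log2 fold changes between genotypes, -0.73 ± 0.27 at E9.0 (adjusted p = 0.263) and -0.31 ± 0.15 at E9.5 (adjusted p = 0.39), did not pass in edgeR, with 95% intervals of -1.31 to -0.16 and -0.63 to 0.01. The value at E9.0 was the farthest from 0 of the 10 genes at that stage.

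Stmn2, a stathmin of growth cones that binds free tubulin (chr3:8509360-8561606, + strand), had 15.8, 9.70 and 12.9 CPM in heterozygous and 13.5, 14.3 and 18.7 CPM in homozygous heads at E9.0. At E9.5 the values were 15.8, 21.7 and 18.9 CPM against 10.6, 11.4 and 13.8 CPM. The genotypes overlapped at E9.0, and at E9.5 every homozygous library was below every control. The log2 fold change between genotypes was 0.28 ± 0.18 at E9.0 (adjusted p = 0.524) and -0.66 ± 0.17 at E9.5 (adjusted p = 0.0675, edgeR). The difference at E9.5 was past the threshold with DESeq2 (adjusted p = 0.0116), limma-voom (0.0337), total counts alone (0.0407) and only the groups compared (0.0466), and without heterozygous E9.0 replicate 1 or 2 or heterozygous E9.5 replicate 1 (0.0376 to 0.0403).

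Gap43, a membrane phosphoprotein of growth cones (chr16:42248442-42340651, - strand), did not pass the threshold between genotypes or between stages. Its group means were 25.2 ± 1.81 CPM in heterozygous and 24.0 ± 1.32 CPM in homozygous heads at E9.0 (SD, n = 3), and 30.5 ± 3.86 against 27.6 ± 4.61 CPM at E9.5. The genotypes overlapped at both stages. On the log2 scale the genotype difference was -0.07 ± 0.12 at E9.0 (95% interval -0.33 to 0.19) and -0.15 ± 0.11 at E9.5 (-0.38 to 0.09). With scaling by total counts alone the value at E9.0 was 0.12.

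**Figure D1:**
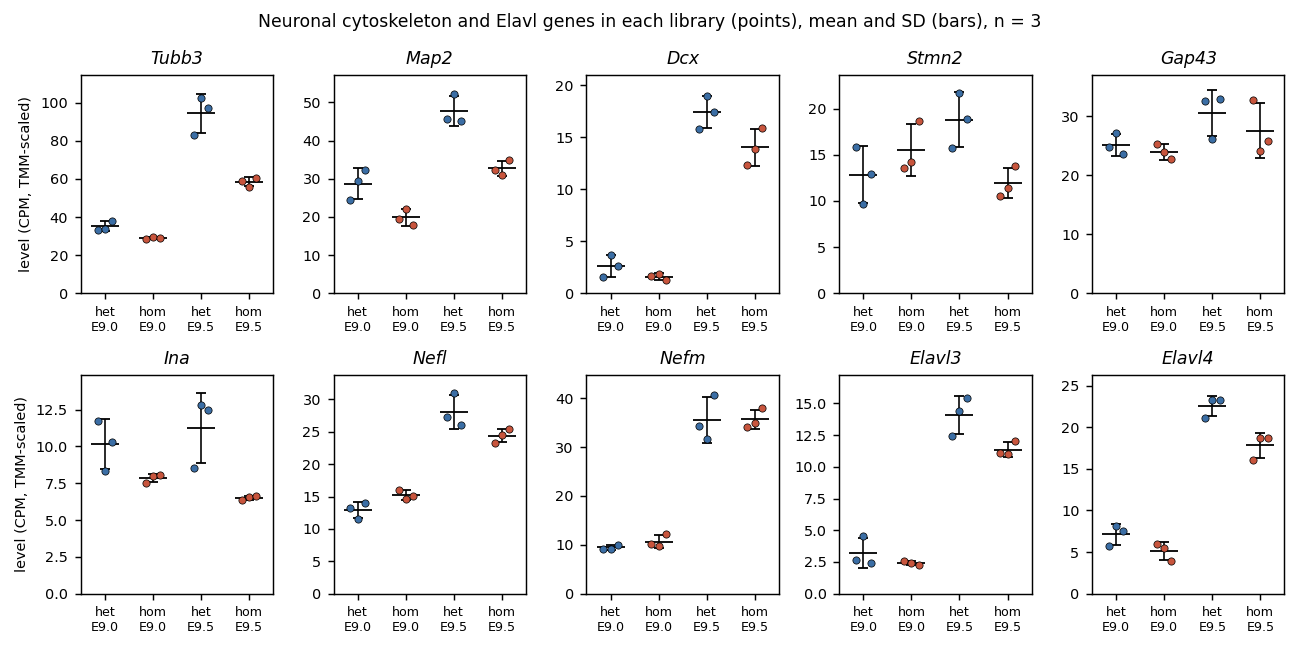
Level of each gene (CPM, TMM-scaled, linear axes from 0) in the 4 groups; points are the 3 libraries of a group, wide ticks the mean and bars the SD, with heterozygous (het) in blue and homozygous (hom) in red. Tubb3, Map2 and Ina have no homozygous point at or above a heterozygous point of the same stage, while the points of Nefm overlap between genotypes at both stages.

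The neurofilament genes did not move together. Ina, alpha-internexin, a neurofilament chain of early neurons (chr19:47014698-47025327, + strand), was at 11.7, 8.36 and 10.3 CPM in heterozygous and 7.51, 8.02 and 8.03 CPM in homozygous heads at E9.0. At E9.5 it was at 8.50, 12.8 and 12.5 CPM against 6.37, 6.54 and 6.63 CPM. The homozygous libraries were below all controls at both stages and close to one another, while the controls spread widely. At E9.5 Ina fell to 0.579 of the control level, a log2 change of -0.79 ± 0.15 (edgeR, adjusted p = 0.0107) and the largest genotype difference of the 10 genes. At E9.0 it had -0.36 ± 0.16 (adjusted p = 0.352). The E9.5 call held whichever of the 12 libraries was left out and in all 11 other settings, with adjusted p up to 0.0483.

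Nefl, the light chain (chr14:68083863-68089095, + strand), lay on opposite sides of the controls at the 2 stages. It was at 13.2, 11.5 and 14.0 CPM in heterozygous and 16.1, 14.7 and 15.1 CPM in homozygous heads at E9.0. The later values were 27.3, 30.9 and 26.0 CPM against 23.3, 24.5 and 25.4 CPM. All homozygous libraries were above the controls at E9.0, and all were below them at E9.5. Neither difference passed the threshold, at 0.24 ± 0.10 (adjusted p = 0.316) and -0.20 ± 0.09 (adjusted p = 0.312, edgeR).

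Nefm, the medium chain (chr14:68082590-68124846, - strand), was at 9.24, 9.17 and 10.01 CPM in heterozygous and 10.2, 9.68 and 12.2 CPM in homozygous heads at E9.0. The values at E9.5 were 34.3, 31.7 and 40.7 CPM against 34.1, 35.0 and 37.9 CPM. The genotypes overlapped at both stages. The log2 fold change was 0.17 ± 0.12 at E9.0 (edgeR, adjusted p = 0.568). At E9.5 it was 0.01 ± 0.09 (adjusted p = 0.991), and its 95% interval of -0.19 to 0.21 leaves out a fall of the size measured for Tubb3, Map2 or Ina.

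Some of these genes share exon bases with neighbours. In GENCODE M21 (GRCm38) Nefl and Nefm lie on opposite strands with 1108 exon bases in common, 32.8% of the exon bases of Nefl and 19.2% of those of Nefm. Ina shares 456 bases, 14.1% of its exons, with Nt5c2 on the other strand. Whether counting used strand is not given in the sources used here, so reads from shared bases may have been lost or given to either gene, and the values of Nefl, Nefm and Ina are uncertain to that extent. Nt5c2, looked up after the overlap was seen, did not pass in edgeR, with genotype log2 fold changes of -0.08 (adjusted p = 0.653 for E9.0) and 0.03 (adjusted p = 0.925 for E9.5). Map2 and Elavl3 share 124 and 256 exon bases with annotated genes that are not rows of the count table.

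Elavl3 and Elavl4, which encode the neuronal RNA-binding proteins HuC and HuD, had lower group means in homozygous than in heterozygous heads at both stages. Elavl4 (chr4:110203722-110351909, - strand) was at 5.72, 8.09 and 7.52 CPM in heterozygous and 6.01, 5.44 and 3.92 CPM in homozygous heads at E9.0, and at 21.1, 23.3 and 23.3 CPM against 16.04, 18.7 and 18.7 CPM at E9.5. The genotypes overlapped at E9.0 through heterozygous replicate 1 and did not overlap at E9.5. Elavl3 (chr9:22015005-22052023, - strand) was at 2.64, 4.56 and 2.45 CPM against 2.55, 2.40 and 2.23 CPM at E9.0, and at 12.5, 14.4 and 15.4 CPM against 11.1, 10.99 and 12.03 CPM at E9.5. Here too the genotypes overlapped at E9.0 only. Elavl4 had genotype differences of -0.49 ± 0.16 (adjusted p = 0.195) and -0.34 ± 0.12 (adjusted p = 0.183) on the log2 scale, which did not pass in edgeR. Elavl3 had -0.43 ± 0.22 (adjusted p = 0.423) and -0.31 ± 0.14 (adjusted p = 0.355), which did not pass either.

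Compared per kilobase of exon in heterozygous heads, Tubb3 and Gap43 had the highest levels at both stages. At E9.0 Tubb3 had 18.8 ± 1.39 CPM per kb (SD, n = 3) and Gap43 16.5 ± 1.19 CPM per kb, with libraries that just missed one another. Next came Nefl with 3.82 ± 0.375, Ina with 3.13 ± 0.523, Stmn2 with 2.29 ± 0.549, Map2 with 1.75 ± 0.241 and Nefm with 1.64 ± 0.0811 CPM per kb, each of which overlapped the next in this order. Elavl4 with 1.32 ± 0.23, Elavl3 with 0.467 ± 0.169 and Dcx with 0.207 ± 0.0853 CPM per kb were the lowest, with no overlap among these 3. At E9.5 Tubb3 had 50.5 ± 5.43 and Gap43 20.0 ± 2.54 CPM per kb, ahead of Nefl with 8.30 ± 0.757 and Nefm with 6.15 ± 0.799, and Dcx was again the lowest with 1.38 ± 0.123. Length here is that of all annotated exons together, so a gene with long alternative exons reads low on this scale.

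Most of the 10 genes rose from E9.0 to E9.5 in both genotypes, by very different amounts. In heterozygous heads 8 of 10 rose and none fell, where 35.2% of all tested genes were called and 19.2% were called higher. Dcx rose most, with a log2 change of 2.69 ± 0.19 (edgeR, adjusted p = 8.07e-08), followed by Elavl3 with 2.13 ± 0.17, Nefm with 1.90 ± 0.11 and Elavl4 with 1.65 ± 0.13. Tubb3 rose by 1.42 ± 0.08, Nefl by 1.12 ± 0.09 and Map2 by 0.72 ± 0.10, with an edgeR adjusted p of 4.66e-05 or less for each of these 7 genes. Stmn2 rose by 0.56 ± 0.17 (adjusted p = 0.0213), with overlap of the stages at a single library each. Gap43, at 0.28 ± 0.12 (adjusted p = 0.0717), and Ina, at 0.16 ± 0.15 (adjusted p = 0.434), did not pass. Gap43 did pass with total counts alone (0.65, adjusted p = 0.00219), total counts without Rn45s (0.0180), no low-count filter (0.0468), and without heterozygous E9.5 replicate 2 (0.0164) or homozygous E9.5 replicate 1 (0.0347), and Ina with total counts alone (0.54, adjusted p = 0.0105). The median over the 10 genes was 1.27 on the log2 scale, beside 0.01 over all tested genes. The rise of Stmn2 had an adjusted p of 0.0573 to 0.0915 without heterozygous E9.0 replicate 2 or 3 or heterozygous E9.5 replicate 2.

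In homozygous heads 7 of 10 rose and none fell, with 35.4% of all tested genes called and 19.6% called higher. Dcx again rose most, with a log2 change of 3.11 ± 0.22 (edgeR, adjusted p = 7.13e-08), followed by Elavl3 with 2.24 ± 0.19, Elavl4 with 1.80 ± 0.14 and Nefm with 1.74 ± 0.11. Tubb3 rose by 1.01 ± 0.08, Map2 by 0.72 ± 0.11 and Nefl by 0.68 ± 0.09, each of the 7 with an adjusted p of 7.63e-05 or less. As folds, Tubb3 rose 2.01-fold in homozygous and 2.67-fold in heterozygous heads. Stmn2 had -0.38 ± 0.18 (adjusted p = 0.113), Ina -0.27 ± 0.16 (adjusted p = 0.201) and Gap43 0.20 ± 0.12 (adjusted p = 0.195), and these did not pass. With only the groups compared Stmn2 did (adjusted p = 0.0445). The comparisons of stages use the same libraries as the comparisons of genotypes. Other cell types changed between the stages as well: all 6 heart muscle genes and all 7 tested erythroid genes rose in both genotypes, with median log2 changes of 3.93 and 1.95 in heterozygous heads, and their part in these values was not tested. In bulk heads more neurons and more RNA per neuron cannot be told apart, nor can fewer neurons and less RNA per neuron between genotypes.

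**Figure D2:**
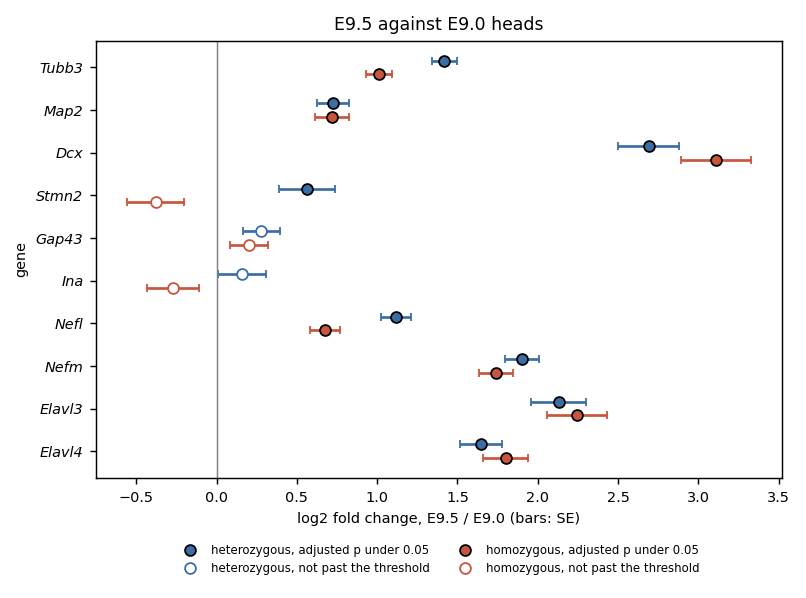
Log2 fold change of E9.5 over E9.0 (x axis) for each gene (y axis) in heterozygous (blue) and homozygous (red) heads; bars are the SE, and filled points have an adjusted p under 0.05. Dcx lies farthest right, at 2.69 and 3.11, and Stmn2 and Ina have points on opposite sides of 0.

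Between genotypes the changes that passed the threshold were all falls, in Map2 at E9.0 and in Tubb3, Map2 and Ina at E9.5. At E9.0 1 of the 10 genes was called, beside 0.587% of all tested genes (0.155% called lower). The homozygous libraries were below all controls for Tubb3, Map2 and Ina, 3 of 10, where 8.2% of all tested genes had such a separation, and above them for Nefl, 1 of 10, where 9.07% had. The log2 difference was below 0 for 7 of 10, with a median of -0.32 beside -0.00 over all tested genes. At E9.5 3 of 10 fell, beside 1.89% of all tested genes called and 0.702% called lower. Tubb3, Map2, Stmn2, Elavl3, Elavl4, Ina and Nefl, 7 of 10, had every homozygous library below every control, where 9.47% of all tested genes had. The median difference was -0.33, again beside -0.00 over all tested genes.

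Averaged over both stages, 4 of the 10 genes fell, beside 2.96% of all tested genes called and 1.14% called lower. On the log2 scale Tubb3 fell by 0.49 ± 0.06 (edgeR, adjusted p = 0.00014), Map2 by 0.54 ± 0.07 (0.000546), Ina by 0.57 ± 0.11 (0.00782) and Elavl4 by 0.42 ± 0.10 (0.0302). Elavl4 lost the call in 7 of the 12 fits that each left out 1 library, with adjusted p of 0.0546 to 0.101: homozygous E9.5 replicate 1 or 2, heterozygous E9.5 replicate 2 or 3, heterozygous E9.0 replicate 2 or 3, or homozygous E9.0 replicate 3. It also lost it with total counts alone, at -0.33 (adjusted p = 0.272). Dcx, at -0.52 ± 0.15 (adjusted p = 0.0882), Elavl3, at -0.37 ± 0.13 (0.154), Stmn2, at -0.19 ± 0.12 (0.491), and Gap43, at -0.11 ± 0.08 (0.554), did not pass. Dcx did pass with DESeq2 (-0.52, adjusted p = 0.0218), and in edgeR when heterozygous E9.0 replicate 1 was left out (-0.63, adjusted p = 0.0146). Nefl, at 0.02 ± 0.07 (adjusted p = 0.93), and Nefm, at 0.09 ± 0.08 (0.618), were nearest to 0. Without heterozygous E9.0 replicate 1, the library rich in Rn45s, 1 of the 10 genes was called at E9.0, 4 at E9.5 and 5 over both stages. Without heterozygous E9.5 replicate 2, 1 was called at E9.0, 3 at E9.5 and 3 over both stages.

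**Figure D3:**
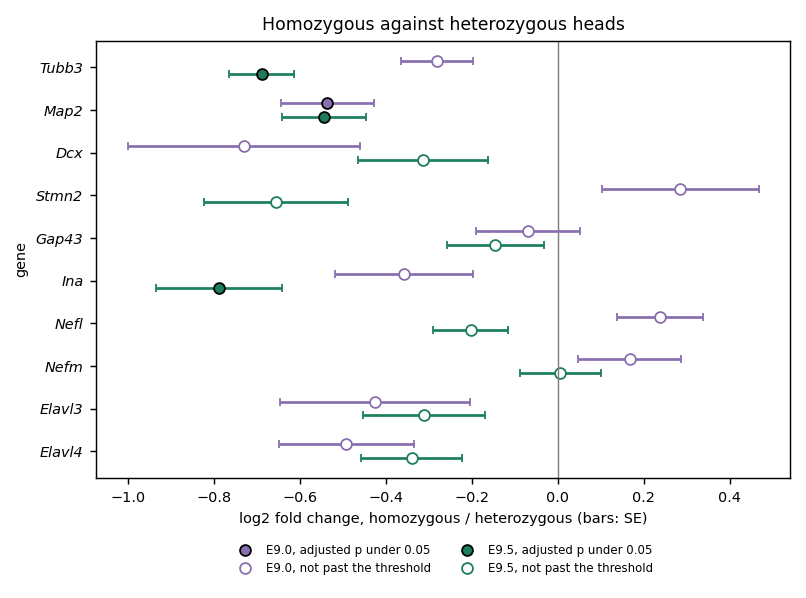
Log2 fold change of homozygous over heterozygous heads (x axis) for each gene (y axis) at E9.0 (purple) and E9.5 (green); bars are the SE, and filled points have an adjusted p under 0.05. The filled points are Map2 at both stages, at -0.54, and Tubb3 and Ina at E9.5, at -0.69 and -0.79, while Nefm at E9.5 lies at 0.01.

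Whether the genotype difference itself changed between stages was tested as an interaction, and 0 of the 10 genes passed in edgeR, beside 0.0675% of all tested genes. Stmn2, Tubb3 and Nefl, 3 of 10, had an unadjusted p under 0.05, as 8.6% of all tested genes did. Their stage differences were -0.94 ± 0.25 (adjusted p = 0.254), -0.41 ± 0.11 (adjusted p = 0.261) and -0.44 ± 0.13 (adjusted p = 0.319) on the log2 scale. Stmn2 passed with DESeq2 (adjusted p = 0.048) and with scaling by total counts alone (adjusted p = 0.0311). For Map2 the stage difference was -0.01 ± 0.15, with a 95% interval of -0.32 to 0.30. It was 0.42 ± 0.31 for Dcx (adjusted p = 0.746), 0.15 ± 0.20 for Elavl4 (0.877), 0.11 ± 0.26 for Elavl3 (0.939), -0.08 ± 0.16 for Gap43 (0.935), -0.16 ± 0.15 for Nefm (0.81) and -0.43 ± 0.22 for Ina (0.612). Tubb3 and Ina, called at E9.5 and not at E9.0, were therefore not shown to differ between the stages.

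Ratios of counts between genes of one library do not depend on library scaling. Those given here were chosen after the values were seen and carry no test. The ratio of Ina to Nefm was 0.912 to 1.27 in heterozygous and 0.661 to 0.828 in homozygous heads at E9.0, and 0.248 to 0.403 against 0.175 to 0.187 at E9.5. The ratio of Ina to Nefl was 0.726 to 0.889 against 0.467 to 0.547 at E9.0, and 0.312 to 0.481 against 0.261 to 0.273 at E9.5. In both ratios every homozygous library was below every control of its stage, and every E9.5 library was below every E9.0 library of its genotype. Tubb3 to Nefm was also lower in each homozygous library than in any control of its stage, with 2.39 to 3.05 against 3.61 to 3.81 at E9.0 and 1.59 to 1.73 against 2.39 to 3.24 at E9.5. The ratio of Nefl to Nefm overlapped between genotypes at both stages, with 1.26 to 1.43 in heterozygous and 1.24 to 1.57 in homozygous heads at E9.0 and 0.639 to 0.975 against 0.669 to 0.699 at E9.5. Elavl3 to Elavl4 overlapped too, with 0.326 to 0.563 against 0.425 to 0.569 at E9.0 and 0.590 to 0.663 against 0.589 to 0.689 at E9.5.

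**Figure D4:**
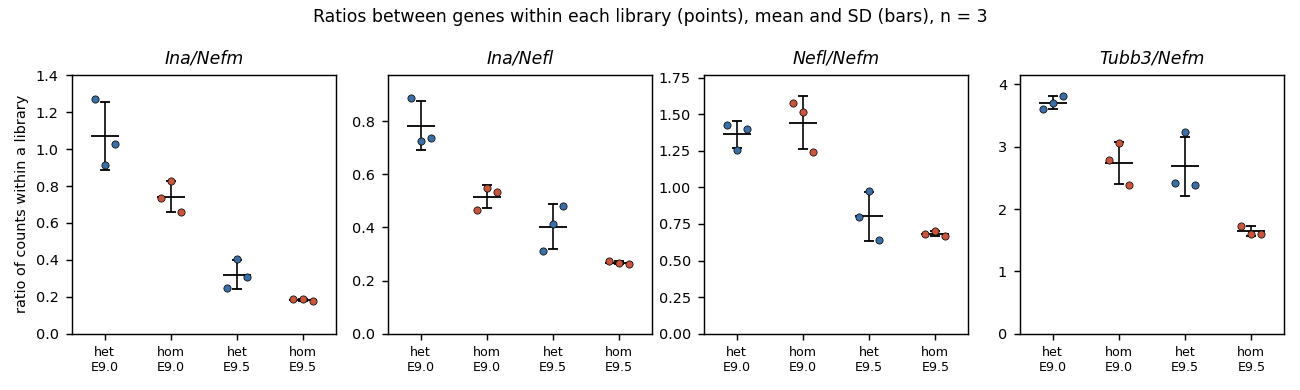
Ratio of counts of 2 genes within each library (y axis, linear from 0) in the 4 groups; points are libraries, wide ticks the mean and bars the SD (n = 3), with heterozygous (het) in blue and homozygous (hom) in red. Ina/Nefm, Ina/Nefl and Tubb3/Nefm have every homozygous point below the heterozygous points of the same stage, and the points of Nefl/Nefm overlap.

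Across the 12 libraries 42 of the 45 gene pairs had a positive Pearson r of log2 CPM, with a median of 0.66, and Dcx and Elavl4 were the closest pair at 0.99. The points share 4 groups that differ in stage. With group means removed 22 of 45 were positive and the median was -0.01, and the closest pairs were Dcx with Elavl4 at 0.83 and Stmn2 with Ina at 0.78. The 5 tested genes that followed the mean of the 10 genes most closely over the 12 libraries were Tlx3 (r = 0.98), a homeobox gene of sensory neurons, Rgs16 (0.98), Unc13d (0.98), Sat2 (0.97) and Epha3 (0.97). Epha3, an Eph receptor, had 2.14 ± 0.0112 CPM in heterozygous and 2.06 ± 0.554 CPM in homozygous heads at E9.0 (SD, n = 3), and 17.9 ± 0.542 against 9.69 ± 1.56 CPM at E9.5. With group means removed the closest 5 were Rxfp1 (0.91), Sv2b (0.91), Lrtm1 (0.89), 5830454E08Rik (0.88) and Tdrkh (0.88). These values are descriptions over 12 points.

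A further 26 genes of the neuronal cytoskeleton and growth cone were all tested between genotypes. Over all tested genes 0.587% were called at E9.0 (0.155% lower) and 1.89% at E9.5 (0.702% lower). These shares stand beside the counts of the other lists below as well. At E9.0 1 fell, Dpysl4, of the collapsin response mediator family, with -0.44 ± 0.09 in log2 units (edgeR, adjusted p = 0.0348). At E9.5 3 fell: Stmn3, a stathmin like Stmn2, by 0.72 ± 0.15 (adjusted p = 0.0237), Dpysl4 by 0.39 ± 0.08 (0.0194) and Crmp1, of the same family, by 0.32 ± 0.06 (0.012). None rose, and the list medians were -0.07 and -0.11, beside -0.00 over all tested genes at each stage. Stmn3 had 5.36, 6.78 and 7.06 CPM in heterozygous and 3.94, 3.499 and 4.20 CPM in homozygous heads at E9.5, with no overlap. Over both stages Dpysl4 fell by 0.42 ± 0.06 (adjusted p = 0.00108), Crmp1 by 0.19 ± 0.04 (0.0243) and the kinesin gene Kif5c by 0.22 ± 0.05 (0.0337). Tubb2b, another beta-tubulin of developing brain, had 0.00 ± 0.06 (adjusted p = 0.992) at E9.0 and -0.20 ± 0.06 (0.121) at E9.5. Stmn1, the founding stathmin, had -0.08 ± 0.13 (adjusted p = 0.842) and -0.10 ± 0.13 (0.838).

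Between stages 14 of these 26 rose and 3 fell in each genotype. Of all tested genes 19.2% were called higher in heterozygous and 19.6% in homozygous heads. Stmn4, another neuronal stathmin, rose by 1.96 ± 0.31 in heterozygous and 1.97 ± 0.36 in homozygous heads on the log2 scale (edgeR, adjusted p = 0.000163 and 0.000523). Stmn3 rose by 1.21 ± 0.17 in heterozygous heads (adjusted p = 5.75e-05), and Tubb2a by 1.14 ± 0.15 in homozygous heads (3.95e-05). Nefh, the heavy neurofilament chain, fell where Nefl and Nefm rose, by 2.17 ± 0.31 (adjusted p = 5.57e-05) in heterozygous and 2.21 ± 0.28 (2.03e-05) in homozygous heads. Its group means went from 2.47 ± 0.595 and 3.68 ± 0.556 CPM at E9.0 to 0.534 ± 0.199 and 0.790 ± 0.278 CPM at E9.5 (SD, n = 3).

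Of 16 other RNA-binding protein genes, Celf3, a splicing regulator of neurons, fell at E9.5 with a log2 change of -0.66 ± 0.16 (edgeR, adjusted p = 0.0442), and none passed at E9.0. The log2 difference was below 0 for 15 of 16 at E9.0 and 11 of 16 at E9.5, with medians of -0.16 and -0.17. Elavl2, the third neuronal gene of the Elavl family, had -0.25 ± 0.12 (adjusted p = 0.371) and -0.21 ± 0.11 (0.419). Elavl1, which is expressed in most tissues, had -0.03 ± 0.05 (adjusted p = 0.838) and -0.01 ± 0.05 (0.969). Between stages Elavl2 rose by 0.39 ± 0.11 (adjusted p = 0.0127) in heterozygous and 0.42 ± 0.11 (0.00852) in homozygous heads, while Elavl1 had -0.07 ± 0.05 (0.325) and -0.05 ± 0.05 (0.514). Srrm4, a regulator of neuronal microexons, rose by 1.32 ± 0.20 (adjusted p = 8.42e-05) and 1.26 ± 0.21 (0.000214).

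Among 19 tested genes of neuronal membranes and vesicles L1cam, an axonal adhesion molecule, was the 1 that passed between genotypes. It had 6.38, 7.18 and 5.76 CPM in heterozygous and 3.38, 3.49 and 3.11 CPM in homozygous heads at E9.0, and 4.91, 5.54 and 5.89 CPM against 2.90, 2.73 and 3.26 CPM at E9.5. The genotypes did not overlap. In edgeR L1cam fell by 0.95 ± 0.15 (adjusted p = 0.00551) on the log2 scale at the earlier and by 0.88 ± 0.14 (adjusted p = 0.00332) at the later stage. The list medians were -0.01 and -0.09. Cntn2, an axonal adhesion gene of early neurons, rose between stages by 2.94 ± 0.20 in heterozygous (adjusted p = 4.43e-08) and 2.36 ± 0.21 in homozygous heads (5.92e-07).

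Among 17 transcription factors of neuron formation Ebf1 rose at E9.5 by 0.49 ± 0.11 on the log2 scale (adjusted p = 0.0277, edgeR), and over both stages Nhlh1 fell by 0.97 ± 0.23 (0.034) and Myt1 by 0.64 ± 0.17 (0.0457). Between stages 13 of 17 rose in heterozygous and 15 of 17 in homozygous heads, beside 19.2% and 19.6% of all tested genes. The median log2 changes of the list were 1.32 and 1.43. Nhlh2, a late helix-loop-helix factor of neurons, rose most, by 5.23 ± 0.31 (adjusted p = 1.35e-08) and 4.77 ± 0.34 (6.25e-08). At E9.0 Nhlh2 had 0.147, 0.268 and 0.215 CPM in heterozygous and 0.451, 0.115 and 0.135 CPM in homozygous heads. Nhlh1 had 0.301, 0.286 and 0.0675 CPM in homozygous heads at E9.0. These levels are near or below that of 3 counts, so the sizes of both changes are uncertain.

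Of 14 tested genes of ganglion and motor neuron identity 2 fell at E9.5, Pou4f1 by 0.95 ± 0.17 (edgeR, adjusted p = 0.0107) and Tlx3 by 1.14 ± 0.24 (0.021) on the log2 scale. Over both stages Isl1, a LIM homeobox gene of sensory and motor neurons, rose by 0.35 ± 0.07 (adjusted p = 0.0106) and the neurotrophin receptor gene Ntrk2 by 0.41 ± 0.08 (0.0108). The list medians were 0.21 at E9.0 and 0.10 at E9.5, above 0 where those of the 10 genes were below it. Of 8 repressors of neuronal genes none passed between genotypes at a single stage, and Rcor2 fell by 0.17 ± 0.04 (adjusted p = 0.0329) over both. Rest, which represses neuronal genes outside the nervous system, had 0.05 ± 0.05 (adjusted p = 0.689) and 0.10 ± 0.05 (0.427). It fell between stages by 0.32 ± 0.05 (adjusted p = 0.000148) in heterozygous and 0.28 ± 0.05 (0.000524) in homozygous heads. Of 12 neural progenitor genes Fabp7 and Dll3 fell at E9.5, by 0.61 ± 0.13 (adjusted p = 0.0194) and 0.78 ± 0.13 (0.00596), and none passed at E9.0.

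**Figure D5:**
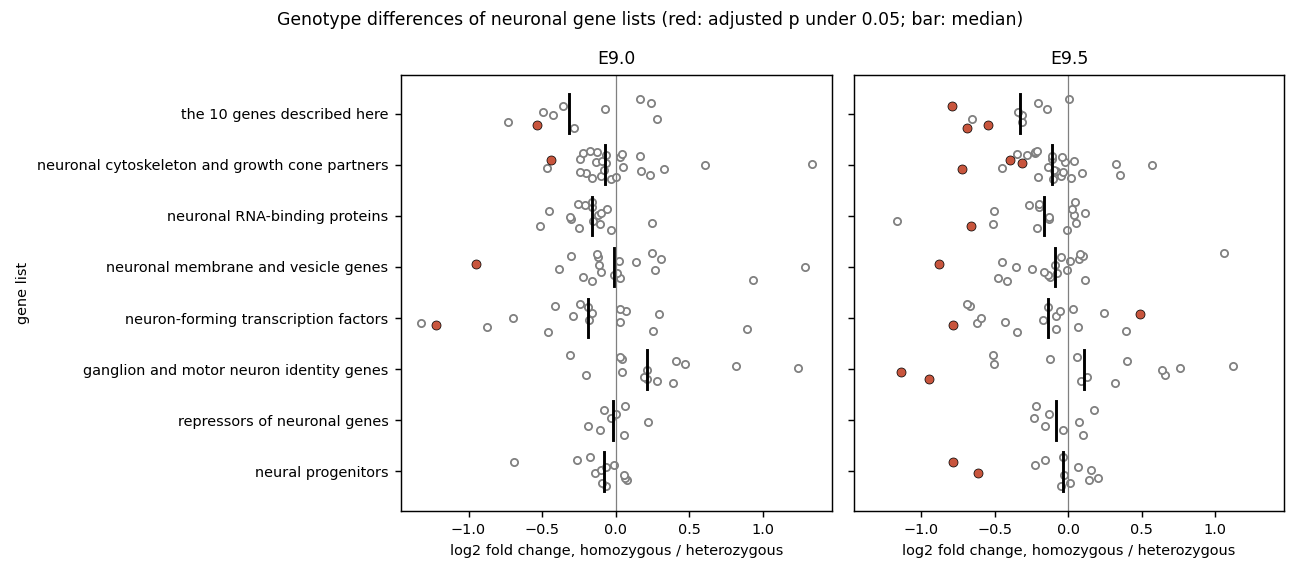
Log2 fold change of homozygous over heterozygous heads (x axis) for each tested gene of 8 lists (y axis) at E9.0 (left) and E9.5 (right); points are genes, red where the adjusted p is under 0.05, and black bars are list medians. The medians of the 10 genes are -0.32 and -0.33, and those of the 26 further cytoskeleton and growth cone genes are -0.07 and -0.11.

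Markers of other cell types moved with genotype as well. Over all tested genes 0.587% were called at E9.0 and 1.89% at E9.5. Of 7 tested genes of neural crest and crest glia 2 fell at E9.0 and 5 at E9.5. The summed level of that list was 166 to 177 CPM in heterozygous and 123 to 140 CPM in homozygous heads at E9.0, and 126 to 130 against 90.9 to 106 CPM at E9.5. Of 8 endothelial genes none passed at E9.0 and 5 rose at E9.5, where their sums were 151 to 219 CPM in heterozygous and 283 to 317 CPM in homozygous heads. Msx1 was the 1 of 8 cranial mesenchyme genes that fell at E9.5, and no erythroid or heart muscle gene passed between genotypes at either stage. Heart muscle sums at E9.5 were 1871 to 2527 against 2236 to 2984 CPM. Neural progenitor sums overlapped between genotypes at both stages, with 1041 to 1077 against 990.1 to 1083 CPM at E9.0 and 1137 to 1361 against 1208 to 1286 CPM at E9.5. Heterozygous E9.5 replicate 2, the highest of its group in Tubb3, Map2 and Ina, was also the highest of its group in this sum. The part of these cell types in the differences of Tubb3, Map2 and Ina was not tested.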

How the data were processed

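The deposited values are raw counts per gene, made by the authors, for 24421 genes in 12 libraries. The submitters' processing notes name cutadapt, STAR, featureCounts, MultiQC and the mm10 build; versions, annotation, strand setting and the handling of multi-mapped reads are not given in the sources used here. The 14810 genes that passed filterByExpr, all 10 described genes among them, were fitted with edgeR 4.0.16 (R 4.3.3) as 4 group means over all 12 libraries after TMM scaling, with robust quasi-likelihood F tests, two-sided, and Benjamini-Hochberg adjustment over all tested genes at 0.05. The SE is the absolute log2 fold change over the root of F. The common biological coefficient of variation was 8.77%. A floor of 3 counts was 0.0880 to 0.225 CPM a library, for counting error alone. Scripts were tested on simulated data. Alternatives were DESeq2 1.42.0, limma-voom (limma 3.58.1), other scalings and filters, a replicate block, only the groups compared, and each library left out. Positions and exon overlaps come from GENCODE M21 (GRCm38), which held 23376 of the 24421 symbols.

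The 10 genes and the lists were chosen with earlier results of these data known. All 10 are named in every comparison. Of the 12 other lists, genes past the threshold between genotypes and the largest stage changes are named; Tubb2b, Stmn1, Elavl1, Elavl2, Rest and Prph were named after their values were seen. Scg2, Pou4f2, Prrxl1 and Hba-a1 were among those too low to be tested. Some results are not reported here.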

Additional observations from a re-analysis of the deposited data

Results flagged for a closer look

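Nefl stood out because its 3 homozygous libraries were all above the controls at E9.0 and all below them at E9.5. The stage difference of its genotype effect was -0.44 ± 0.13 on the log2 scale and did not pass the threshold in edgeR (adjusted p = 0.319). Its exons share bases with Nefm on the other strand, and the part of that overlap was not tested.

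Msx1, a homeobox gene of facial mesenchyme used here as a marker of another cell type, stood out because its genotype effect differed between stages by -0.67 ± 0.10 (edgeR, adjusted p = 0.0198) in log2 units. The gene was at 31.5 ± 1.54 CPM in heterozygous and 34.1 ± 1.19 CPM in homozygous heads at E9.0 (SD, n = 3), and at 47.8 ± 3.18 against 32.5 ± 0.872 CPM at E9.5.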

How the results depend on the processing

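Tubb3 and Ina at E9.5 kept their calls in all 11 alternatives and all 12 fits that left out 1 library. Over all settings, 1301 of 1360 single-gene values kept direction and side of the threshold, 22 lost and 18 gained a call and 19 reversed, and 35 of 272 counts of calls moved by over 1.5 times. The cause was not tested. Total counts alone shift the median of all genes by 0.19 at E9.0, by 0.38 and 0.18 between stages in heterozygous and homozygous heads, and by -0.19 in the stage difference. With them Map2 lost its calls (adjusted p = 0.343 at E9.0 and 0.181 at E9.5), 0 of the 10 genes were called at E9.0 and 1, Stmn2, in the stage difference, and of all genes 123 were called at E9.5 and 3325 between stages in homozygous heads. Higher calls were then 96.2% at E9.0, 47.2% at E9.5, 84.7% over both stages, and 96.4% and 87.1% between stages, against 73.6%, 62.9%, 61.5%, 54.4% and 55.3% with TMM. With total counts without Rn45s the shares were 86.7% at E9.0 and 74.9% and 69.2% between stages. In that setting 0 of the 10 were called at E9.0 (Map2, adjusted p = 0.0553), as with limma-voom (0.0817) and only the groups compared (0.117). Under total counts alone Gap43 reversed at E9.0 (0.12), Nefm at E9.5 (-0.0026), and Elavl3 (-0.074) and Elavl4 (-0.0383) in the stage difference; without a low-count filter Map2 reversed there (0.0108), and higher calls in the stage difference were 41.7% of 12 against 10% of 10. DESeq2 called 203 genes at E9.0, 449 at E9.5 and 74 in the stage difference, there with 1 of the 10, Stmn2. Limma-voom called 51 at E9.0 and 5 in the stage difference.

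With each library left out, 38 to 109 genes were called at E9.0 (87 with all; 38 without homozygous E9.0 replicate 3 and 39 without heterozygous E9.0 replicate 2). At E9.5 it was 133 to 301 (280 with all; 133 to 168 without heterozygous E9.5 replicate 2 or any homozygous E9.5 library). Over both stages it was 246 to 411 (439 with all; 246 to 285 without homozygous E9.5 replicate 2, heterozygous E9.0 replicate 2 or homozygous E9.0 replicate 3). In the stage difference it was 1 to 16 (10 with all; 16 without heterozygous E9.5 replicate 2, and 1 to 6 without homozygous E9.0 replicate 3, any homozygous E9.5 library, heterozygous E9.5 replicate 1 or heterozygous E9.0 replicate 1 or 2). Of the 10 genes, 0 to 1, 2 to 4, 3 to 5 and 0 to 0 were called. Values near 0 changed sign: -0.0674 to 0.12 for Nefm at E9.5, -0.023 to 0.0561 for Nefl over both stages, and in the stage difference -0.10 to 0.0896 for Map2, -0.23 to 0.31 for Elavl3, -0.0047 to 0.27 for Elavl4 and -0.22 to 0.016 for Gap43.

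No pairing by replicate number was seen. Same-numbered libraries had correlations of -0.17 to 0.11 in their deviations from group means, with 1 of 12 pairs over 0.1. Differently numbered libraries had -0.20 to 0.19. With 3 libraries a group this check cannot show that no samples shared a litter or batch. With the replicate block 69, 248, 383 and 9 genes were called at E9.0, at E9.5, over both stages and in the stage difference, and 5019 and 5012 between stages, and no call among the 10 genes changed. Only the groups compared could not be fitted for the mean over stages and the stage difference, which use all 4 groups. Depth limits Dcx and Elavl3 most, with 19 to 85 counts a library at E9.0.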
